A study of Mus musculus with 20 samples.

Results

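The genes described here are a set of 37 mouse genes for the assembly of peroxisomes and for lipid metabolism inside them, measured in hearts of MuRF1 +/+ and MuRF1 -/- mice fed chow with or without fenofibrate. The set was chosen by gene name, not by measured values: a probe belonged to it when its gene was one of the 37 named members, older names included, and the probe brightest in the heart channel stood for each gene. Of the 37, 35 were found under their own name and 2 under an older one (Pex2 and Far1). They are 37 of 27670 named genes on the array, and 36 of the 14576 genes that were bright enough in heart to be tested. The member that was not tested was Abcd2, which encodes a peroxisomal transporter of very long chain fatty acids. On 0 of 20 arrays was the heart signal of its probe well above background.

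Peroxisomes are small organelles bounded by a single membrane that shorten very long chain and branched fatty acids by beta- and alpha-oxidation, begin the synthesis of ether lipids (plasmalogens) and break down hydrogen peroxide. Proteins called peroxins, encoded by the Pex genes, insert membrane proteins, import matrix enzymes from the cytosol and divide the organelle. Fenofibrate lowers blood lipids and acts through PPAR alpha, a nuclear receptor. Its activation in rodent liver enlarges the peroxisome population and induces many enzymes of peroxisomal beta-oxidation, of which Ehhadh and the thiolases are textbook examples. MuRF1, encoded by Trim63, is a ubiquitin ligase of striated muscle.

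The 20 hearts fell into 6 groups, each heart on its own 2-colour array. MuRF1 +/+ and MuRF1 -/- mice had each been given chow for 8 weeks (3 hearts per genotype), chow with 0.05% fenofibrate by weight for 3 weeks (4 hearts per genotype) or the same diet for 8 weeks (3 hearts per genotype). The labels used here do not give the strain, sex or age of the mice, or how the MuRF1 allele was made, and no chow group matched the 3-week diet in length. RNA of a pool of whole newborn mice (day 1) was the common reference on every array. Every level below is a log2 ratio of heart over this reference, so a level above 0 means brighter in heart than in newborn mouse, and levels of different genes are not compared. A difference is between group means of log2 ratios, is given ± its standard error from 1 model over all 20 hearts, and passed the test when its p-value, adjusted over all 14576 genes, was under 0.05.

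Several facts of these arrays touch the results. Trim63 stood at 0.79 to 2.85 in the 10 MuRF1 +/+ hearts and at -1.19 to -0.49 in the 10 MuRF1 -/- hearts. The array of MuRF1 +/+ 8-week heart 2 (the lowest Trim63 level among the MuRF1 +/+ hearts) and that of MuRF1 -/- 3-week heart 4 stood apart from their groups, and counts are also given without them. On these 2 arrays 33.99% and 34.35% of heart probes were well above background, beside 36.94% to 51.98% on the others. The part of this lower signal in the results was not tested. The Y-linked transcripts Ddx3y and Eif2s3y were well above background in all 6 chow hearts. Both were so in 0 of 4 MuRF1 +/+ 3-week hearts, 0 of 3 MuRF1 +/+ 8-week hearts, 0 of 4 MuRF1 -/- 3-week hearts and 2 of 3 MuRF1 -/- 8-week hearts. Of the MuRF1 -/- 3-week hearts, 1 had Ddx3y alone (-0.88) and 1 had Eif2s3y alone (-0.31) above background, below the 0.97 to 1.74 of the hearts with both. Xist, made from the inactive X chromosome, was at -4.24 to -3.49 in chow hearts, -0.5 to 0.2 in 3-week hearts, -2.7, -0.9 and -2.04 in MuRF1 +/+ 8-week hearts and -3.51, -2.72 and -4.05 in MuRF1 -/- 8-week hearts, so it differed between the 3-week and 8-week hearts too. Sex and diet cannot be told apart in the comparisons of the 3-week groups and of the MuRF1 +/+ 8-week group with chow. The Y-linked transcripts and Xist also differed between the MuRF1 +/+ and MuRF1 -/- 8-week groups, so sex and genotype are not fully separate there. Cardiac muscle markers were high in every heart (mean of 9 genes 2.47 to 3.45). The mean of 7 fibroblast and matrix genes was -3.5 to -3.35 in MuRF1 +/+ chow hearts and -2.94 to -2.54 after 3 weeks of fenofibrate, and -3.58 to -2.98 and -2.98 to -2.38 in MuRF1 -/- hearts. After 8 weeks it was -3.45 to -2.19 in MuRF1 +/+ and -4.13 to -3.58 in MuRF1 -/- hearts. The mean of 8 endothelial genes was 0.21 to 0.25 on chow, 0.48 to 0.77 after 3 weeks and 0.42 to 1.35 after 8 weeks in MuRF1 +/+ hearts, and 0.15 to 0.38, 0.46 to 0.83 and 0.055 to 0.2 in MuRF1 -/- hearts. The mean of 7 white adipocyte genes was -2.15 to -2.1 on chow, -1.96 to -1.43 after 3 weeks and -2.07 to -1.18 after 8 weeks in MuRF1 +/+ hearts. In MuRF1 -/- hearts it was -2.27 to -2.05, -2.17 to -1.3 and -2.25 to -1.95, so these groups overlapped. The part of these cell type markers in the results below was not tested, and in whole hearts fewer cells of a type and less RNA per cell cannot be told apart.

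The 3-week diet was compared with chow within each genotype. In MuRF1 +/+ hearts 2 members rose and 7 fell, which is 25% of the 36 tested against 24.5% of all genes called in that comparison (12.3% higher and 12.2% lower). Among MuRF1 -/- hearts 3 members rose and 7 fell, 27.8% against 26.5% of all genes (14.3% higher and 12.1% lower). The share of members called was thus near that of all genes in both genotypes, and the median difference of the members was -0.086 and -0.1, beside 0.0099 and -0.0082 over all genes. Of the calls, 8 were the same gene in the same direction in both genotypes: Pex14, Pex6, Pex10, Pex11a, Hsd17b4 and Acaa1b fell, and Agps and Far1 rose. These 8 were 88.9% of the members called in MuRF1 +/+ and 80% of those called in MuRF1 -/-, while over all genes the shared calls were 74.3% and 68.7%. Of these 8, the genes that fell were peroxins of the import machinery, the division factor and beta-oxidation enzymes, and the 2 that rose were ether lipid enzymes. Most import and beta-oxidation members were not called, and roles of so few members are not set apart from all genes.

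**Figure D1:**
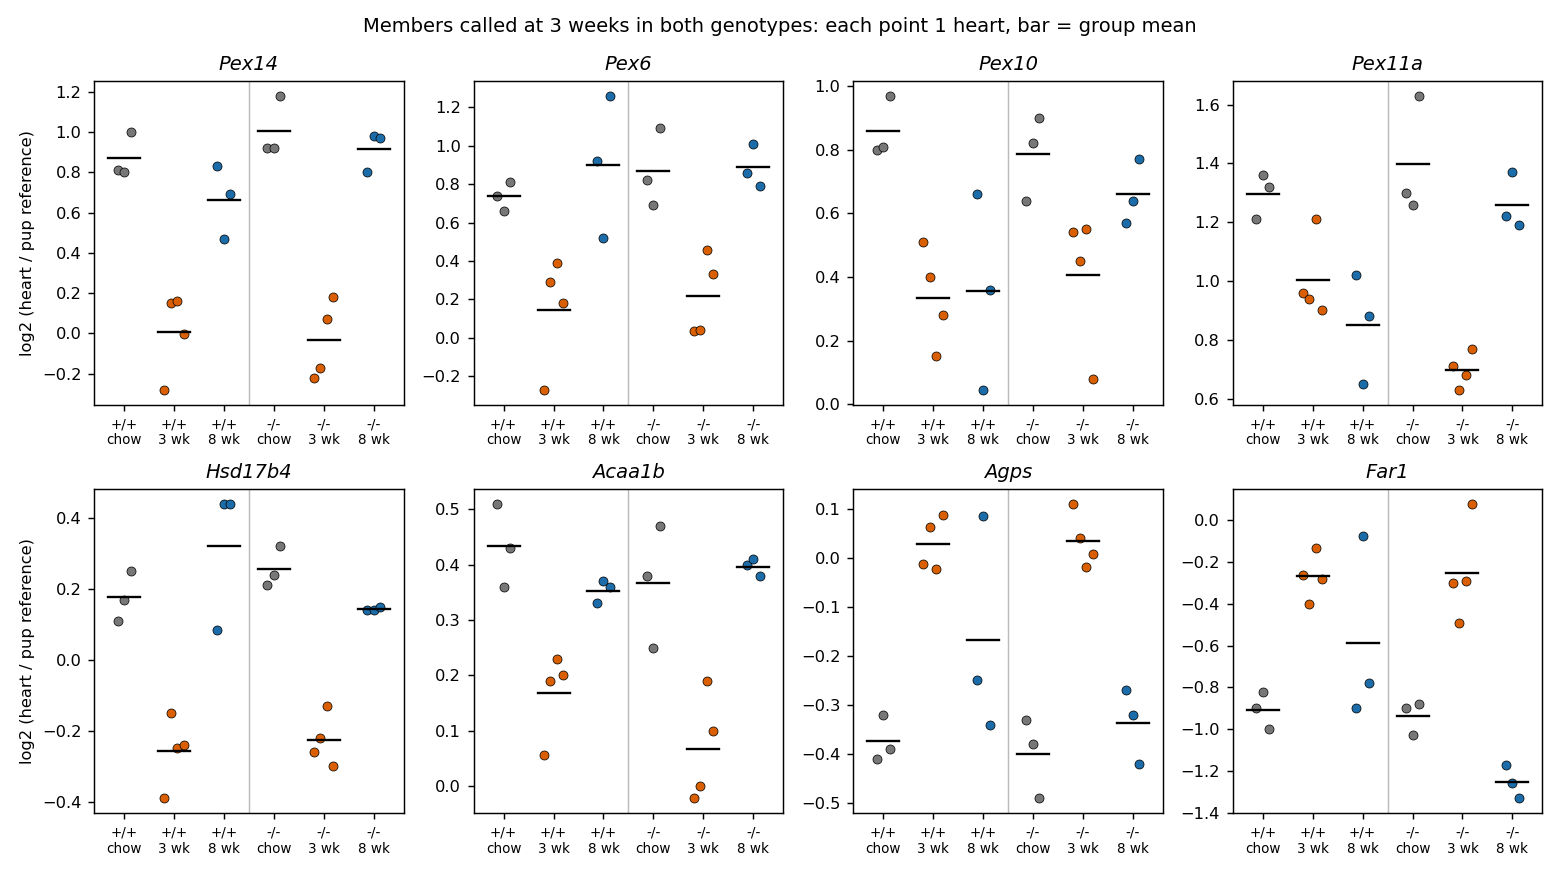
Log2 ratio (heart over newborn reference, vertical axes) of the 8 members called in the same direction in both genotypes after 3 weeks of fenofibrate. Each point is 1 heart, the 6 groups stand along the horizontal axes and bars are group means. Pex14 stood at -0.28 to 0.18 in the 8 hearts of the 3-week groups and at 0.8 to 1.18 in the 6 chow hearts.

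Pex14 encodes the membrane protein at which loaded import receptors dock, and it had the smallest adjusted p among the members. Its level in MuRF1 +/+ hearts was 0.81, 0.8 and 1.0 on chow, -0.28, 0.15, 0.16 and -0.0042 after 3 weeks, and 0.83, 0.47 and 0.69 after 8 weeks. Pex14 in MuRF1 -/- hearts was 0.92, 0.92 and 1.18 on chow, -0.22, -0.17, 0.07 and 0.18 after 3 weeks, and 0.8, 0.98 and 0.97 after 8 weeks. Every 3-week heart was below every chow heart and every 8-week heart, whichever the genotype. Pex14 fell by 0.86 ± 0.12 at 3 weeks in MuRF1 +/+ (1.82-fold lower, adjusted p = 9.16e-05) and by 1.04 ± 0.12 in MuRF1 -/- (2.06-fold lower, adjusted p = 1.03e-05). Both differences passed the test with any single heart of the comparison left out and under each other processing tried. Within slides the difference ran from -1.1 to -0.65 in MuRF1 +/+ and from -1.14 to -1.08 in MuRF1 -/-.

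Pex6 and Pex10 act after docking: Pex6 is an ATPase that pulls the used import receptor out of the membrane, and Pex10 is a RING ubiquitin ligase that marks it for removal. Pex6 in MuRF1 +/+ hearts was 0.74, 0.66 and 0.81 on chow and -0.27, 0.29, 0.39 and 0.18 after 3 weeks. Pex6 in MuRF1 -/- hearts was 0.82, 0.69 and 1.09 on chow and 0.037, 0.041, 0.46 and 0.33 after 3 weeks. The 3-week hearts were below the chow hearts without overlap in both genotypes, and the 8-week hearts (0.52 to 1.26 and 0.79 to 1.01) overlapped with chow. Pex6 fell by 0.59 ± 0.17 (adjusted p = 0.0154) and by 0.65 ± 0.17 (adjusted p = 0.00826). In MuRF1 +/+ the adjusted p was 0.0691 without chow heart 3 and 0.0533 without 3-week heart 1, and in MuRF1 -/- it was 0.0595 without chow heart 3. With the heart channel alone it was 0.0816 in MuRF1 +/+, and in MuRF1 -/- it was 0.0783 with all spots in the background model and 0.091 on the authors' own log2 values (their series matrix). Pex10 in MuRF1 +/+ hearts was 0.8, 0.81 and 0.97 on chow, 0.51, 0.4, 0.15 and 0.28 after 3 weeks and 0.66, 0.045 and 0.36 after 8 weeks. Pex10 in MuRF1 -/- hearts was 0.64, 0.82 and 0.9 on chow, 0.54, 0.45, 0.55 and 0.079 after 3 weeks and 0.57, 0.64 and 0.77 after 8 weeks. It did not overlap with chow at 3 weeks in either genotype and stayed below chow at 8 weeks in MuRF1 +/+. It fell by 0.53 ± 0.13 (adjusted p = 0.00804) and by 0.38 ± 0.13 (adjusted p = 0.0423) at 3 weeks. In MuRF1 +/+ the adjusted p was 0.051 without chow heart 3, 0.0767 on Agilent's ratio and 0.0608 in the series matrix. In MuRF1 -/- the call was lost without chow heart 2 or 3 or 3-week heart 2 or 4 (adjusted p 0.0569 to 0.162), with slide as a block (0.0952) and with all spots in the background model (0.551).

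The other 5 import members did not pass the test in any diet comparison. They are the cargo receptors Pex5 and Pex7, the docking partner Pex13, the RING ligase Pex2 and Pex26, which anchors Pex6 at the membrane. Pex7 ranged from -0.21 to 0.78 over the 20 hearts, and its lowest level was in MuRF1 +/+ 8-week heart 2. For Pex13, which has 3 probes, the probes disagreed. The brightest gave 0.037 in MuRF1 +/+ and -0.023 in MuRF1 -/- at 3 weeks, while a dimmer probe, above background on 18 arrays, gave 1.28 ± 0.13 (adjusted p = 8.13e-06) and 1.16 (adjusted p = 1.01e-05), so the Pex13 result is uncertain.

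Pex11a, which elongates peroxisomes before division and is a known PPAR alpha target in rodent liver, was lower and not higher in the 3-week hearts. Pex11a in MuRF1 -/- hearts was 1.3, 1.26 and 1.63 on chow, 0.71, 0.63, 0.68 and 0.77 after 3 weeks, and 1.22, 1.37 and 1.19 after 8 weeks. Pex11a in MuRF1 +/+ hearts was 1.21, 1.36 and 1.32 on chow, 0.96, 0.94, 1.21 and 0.9 after 3 weeks, and 1.02, 0.65 and 0.88 after 8 weeks. In MuRF1 -/- the 3-week hearts did not overlap with either other group, whereas in MuRF1 +/+ one 3-week heart was level with the lowest chow heart. Pex11a fell by 0.7 ± 0.1 at 3 weeks in MuRF1 -/- (1.62-fold lower, adjusted p = 0.000122), a call kept with any heart left out and under each other processing tried. In MuRF1 +/+ it fell by 0.29 ± 0.1 (adjusted p = 0.0492), a call lost in 6 of the 7 fits without 1 heart (all but 3-week heart 3, adjusted p 0.0677 to 0.141), with slide as a block (0.104) and under most other settings. The difference between the 3-week responses of the genotypes was -0.41 and did not pass the test (adjusted p = 0.999).

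Hsd17b4 encodes the D-bifunctional protein, which carries out the hydratase and dehydrogenase steps for very long chain and branched substrates. Hsd17b4 in MuRF1 +/+ hearts was 0.11, 0.17 and 0.25 on chow, -0.39, -0.15, -0.25 and -0.24 after 3 weeks, and 0.083, 0.44 and 0.44 after 8 weeks. Hsd17b4 in MuRF1 -/- hearts was 0.21, 0.24 and 0.32 on chow, -0.26, -0.22, -0.13 and -0.3 after 3 weeks, and 0.14, 0.14 and 0.15 after 8 weeks. All 8 hearts of the 3-week groups were below 0 and the other 12 were above it. Hsd17b4 fell by 0.44 ± 0.083 at 3 weeks in MuRF1 +/+ (adjusted p = 0.000993) and by 0.48 ± 0.083 in MuRF1 -/- (adjusted p = 0.0004), and both calls were kept with any heart left out. With the heart channel alone, not set against the reference, neither passed (adjusted p = 0.172 and 0.399). Ehhadh, the L-bifunctional protein that runs the same steps for other fatty acids, had no comparable difference. Ehhadh in MuRF1 +/+ hearts was -1.58, -1.59 and -1.67 on chow, -1.67, -1.62, -1.56 and -1.44 after 3 weeks, and -1.49, -1.34 and -1.41 after 8 weeks. Ehhadh in MuRF1 -/- hearts was -1.64, -1.56 and -1.88 on chow, -1.76, -1.52, -1.78 and -1.37 after 3 weeks, and -1.51, -1.49 and -1.54 after 8 weeks. The 3-week groups overlapped with chow, and the MuRF1 +/+ 8-week hearts were all above the MuRF1 +/+ chow hearts. The 3-week difference of Ehhadh was 0.039 in MuRF1 +/+ (95% interval -0.17 to 0.25) and 0.092 in MuRF1 -/- (-0.12 to 0.31). The 8-week difference was 0.2 (-0.028 to 0.43, adjusted p = 0.205) and 0.18 (-0.047 to 0.41). The intervals leave room for a rise of up to 1.19-fold and 1.24-fold at 3 weeks, and 1.35-fold and 1.33-fold at 8 weeks.

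The thiolases that complete each round of beta-oxidation are encoded by Acaa1a and Acaa1b, similar genes on chromosome 9 whose probes may take up each other's transcripts, so the values of both are uncertain. Acaa1b in MuRF1 +/+ hearts was 0.51, 0.36 and 0.43 on chow, 0.055, 0.19, 0.23 and 0.2 after 3 weeks, and 0.33, 0.37 and 0.36 after 8 weeks. Acaa1b in MuRF1 -/- hearts was 0.38, 0.25 and 0.47 on chow, -0.022, 0, 0.19 and 0.099 after 3 weeks, and 0.4, 0.41 and 0.38 after 8 weeks. The 3-week hearts were below chow without overlap in both genotypes. Acaa1b fell by 0.26 ± 0.07 (adjusted p = 0.0113) and by 0.3 ± 0.07 (adjusted p = 0.00467) at 3 weeks, and in MuRF1 +/+ the adjusted p was 0.0673 without chow heart 1. Neither call passed with the heart channel alone (adjusted p = 0.321 and 0.176) or in the series matrix (0.0688 and 0.0595). Acaa1a, on its brightest probe, was 0.48, 0.32 and 0.56 in MuRF1 +/+ chow hearts, 0.3, 0.57, 0.61 and 0.7 after 3 weeks, and 0.41, 1.2 and 0.65 after 8 weeks. Acaa1a in MuRF1 -/- hearts was 0.4, 0.37 and 0.42 on chow, 0.27, 0.36, 0.51 and 0.94 after 3 weeks, and 0.35, 0.51 and 0.38 after 8 weeks. The groups overlapped throughout. Its 3-week difference was 0.094 (95% interval -0.24 to 0.43) in MuRF1 +/+ and 0.12 (-0.21 to 0.46) in MuRF1 -/-.

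The other probes of Acaa1a gave the opposite sign. At 3 weeks in MuRF1 +/+ its 2 dimmer probes gave -0.74 ± 0.13 (adjusted p = 0.000702) and -0.51 ± 0.12 (adjusted p = 0.00463). The same probes in MuRF1 -/- gave -0.86 (adjusted p = 0.000172) and -0.71 (adjusted p = 0.000317). When all probes of a gene were averaged, Acaa1a fell by 0.38 (adjusted p = 0.00314) and by 0.48 (adjusted p = 0.000493). So the direction of Acaa1a depends on which probe is read, and no direction is given for it. Pxmp4, a membrane protein, showed a like split, with 0.14 and 0.15 on its brightest probe and -0.43 (adjusted p = 0.00783) and -0.5 (adjusted p = 0.00273) on its other one. Of the 45 member and comparison pairs that passed the test, 14 could be read on a further probe, which passed with the same sign in 9. The further probe in 3 pairs, of Agps and Far1, had the opposite sign without passing.

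**Figure D2:**
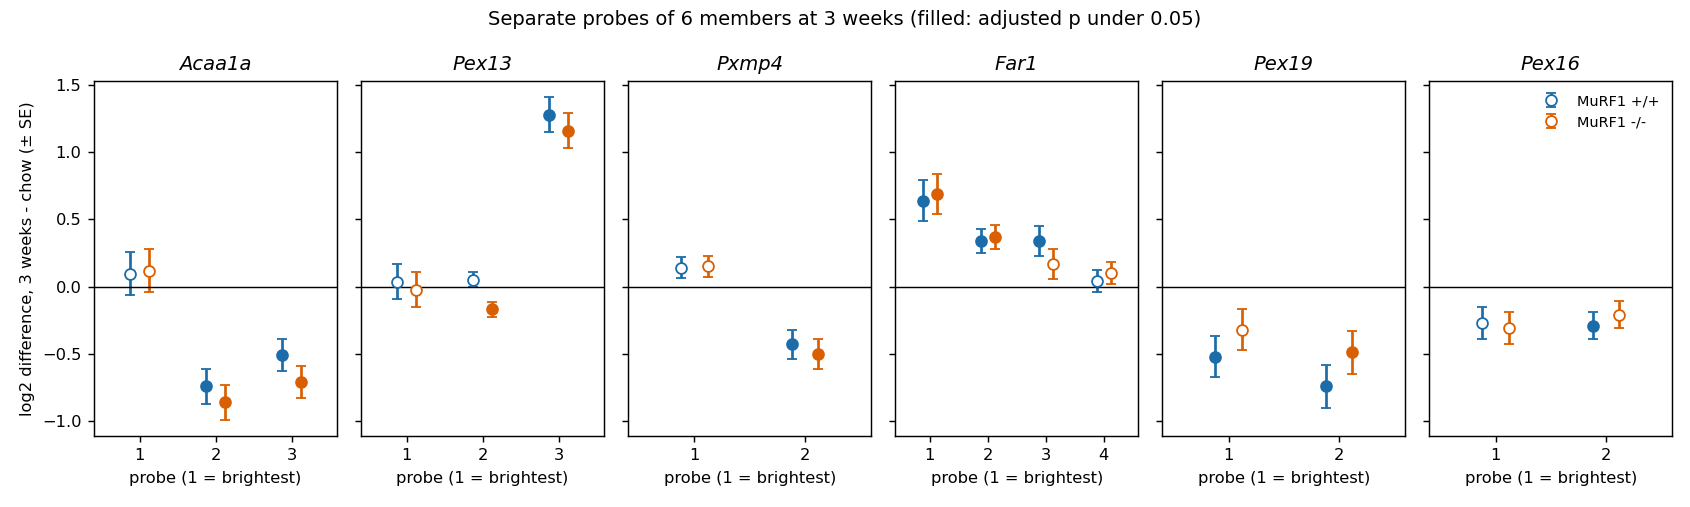
Difference of 3 weeks of fenofibrate from chow (log2, bars ± standard error) for each probe of 6 members that have several, in MuRF1 +/+ and MuRF1 -/- hearts. The probes of Acaa1a, Pex13 and Pxmp4 disagree with each other, and those of Pex19 and Pex16 lie on the same side of 0.

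Agps and Far1 rose. Both belong to ether lipid synthesis: Agps exchanges the acyl chain for a fatty alcohol, and Far1 makes that alcohol. Agps in MuRF1 +/+ hearts was -0.41, -0.32 and -0.39 on chow, -0.013, 0.062, -0.022 and 0.088 after 3 weeks, and -0.25, 0.085 and -0.34 after 8 weeks. Agps in MuRF1 -/- hearts was -0.33, -0.38 and -0.49 on chow, 0.11, 0.041, -0.018 and 0.0074 after 3 weeks, and -0.27, -0.32 and -0.42 after 8 weeks. The 3-week hearts were above chow without overlap, and among the 8-week hearts only MuRF1 +/+ heart 2 was at the 3-week level. Agps rose by 0.4 ± 0.083 (1.32-fold, adjusted p = 0.00193) and by 0.43 ± 0.083 (1.35-fold, adjusted p = 0.000994). Far1 in MuRF1 +/+ hearts was -0.9, -0.82 and -1.0 on chow, -0.26, -0.4, -0.13 and -0.28 after 3 weeks, and -0.9, -0.076 and -0.78 after 8 weeks. Far1 in MuRF1 -/- hearts was -0.9, -1.03 and -0.88 on chow, -0.3, -0.49, -0.29 and 0.079 after 3 weeks, and -1.17, -1.26 and -1.33 after 8 weeks. Again the 3-week and chow hearts did not overlap, and MuRF1 +/+ 8-week heart 2 alone of its group was near the 3-week hearts. Far1 rose by 0.64 ± 0.15 (1.56-fold, adjusted p = 0.00521) and by 0.69 ± 0.15 (1.61-fold, adjusted p = 0.00286). The calls of Agps and Far1 were kept with any heart left out. That of Agps was lost in MuRF1 +/+ with the mean of its probes (0.15, adjusted p = 0.0766) and in MuRF1 -/- in the series matrix (0.0627), and that of Far1 in MuRF1 -/- when the background model took all spots (0.0603) or the series matrix was used (0.0723). Dimmer probes of Far1 gave smaller differences in MuRF1 +/+ (0.34, 0.34 and 0.043) and in MuRF1 -/- (0.37, 0.17 and 0.1). The dimmer probe of Agps had the opposite sign in MuRF1 +/+ without passing, so the rise of Agps there was seen on its brightest probe only.

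Gnpat, the acyltransferase that starts ether lipid synthesis, was not called at 3 weeks in either genotype. Gnpat in MuRF1 +/+ hearts was 1.64, 1.6 and 1.55 on chow, 1.45, 1.25, 1.31 and 1.16 after 3 weeks, and 1.36, -0.0036 and 1.02 after 8 weeks. Gnpat in MuRF1 -/- hearts was 1.2, 1.59 and 1.48 on chow, 1.23, 1.39, 1.12 and 0.84 after 3 weeks, and 1.4, 1.45 and 1.64 after 8 weeks. Its lowest value came from MuRF1 +/+ 8-week heart 2.

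The calls made in only 1 genotype at 3 weeks were Pex19 in MuRF1 +/+, and Ech1 and Abcd4 in MuRF1 -/-. Pex19 is the chaperone that carries newly made membrane proteins to peroxisomes, and it was 0.63, 0.74 and 0.89 in MuRF1 +/+ chow hearts, 0.4, 0.22, 0.079 and 0.24 after 3 weeks, and 0.38, -0.36 and 0.059 after 8 weeks. Pex19 in MuRF1 -/- hearts was 0.27, 0.66 and 0.53 on chow, 0.24, 0.41, 0.21 and -0.18 after 3 weeks, and 0.6, 0.64 and 0.85 after 8 weeks. It fell by 0.52 ± 0.15 in MuRF1 +/+ (adjusted p = 0.0197, but 0.1 without chow heart 3, 0.0555 without 3-week heart 3, 0.123 on Agilent's ratio and 0.0519 in the series matrix), and its difference in MuRF1 -/- was -0.32 (adjusted p = 0.139). Its other probe passed in both genotypes, with -0.74 (adjusted p = 0.00304) and -0.49 (adjusted p = 0.0337). Ech1 encodes a dienoyl-CoA isomerase of peroxisomes and mitochondria. It was 2.67, 2.4 and 2.55 in MuRF1 +/+ chow hearts, 2.24, 2.25, 2.26 and 2.14 after 3 weeks, and 2.39, 1.37 and 2.41 after 8 weeks. Ech1 in MuRF1 -/- hearts was 2.3, 2.35 and 2.99 on chow, 1.68, 1.95, 2.24 and 1.77 after 3 weeks, and 2.46, 2.64 and 2.71 after 8 weeks. The 3-week hearts were below the chow hearts of their genotype, and Ech1 fell by 0.64 ± 0.22 in MuRF1 -/- (adjusted p = 0.0371), a call lost without chow heart 3 or 3-week heart 1, 2 or 4 (0.0554 to 0.229), with slide as a block (0.0666) and with the heart channel alone (0.0606). Abcd4, a transporter of the ABCD family now known from lysosomes, was 0.2, 0.19 and 0.34 in MuRF1 +/+ chow hearts, 0.3, 0.45, 0.21 and 0.39 after 3 weeks, and 0.14, 0.38 and 0.08 after 8 weeks. Abcd4 in MuRF1 -/- hearts was 0.076, 0.11 and 0.19 on chow, 0.52, 0.24, 0.58 and 0.26 after 3 weeks, and 0.026, 0.11 and -0.0066 after 8 weeks. It rose by 0.27 ± 0.093 in MuRF1 -/- (adjusted p = 0.0374, but 0.0638 to 0.111 without any 1 chow heart or without 3-week heart 1 or 3). Whether these 3 responses differ between genotypes was tested as described below, and none passed.

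**Figure D3:**
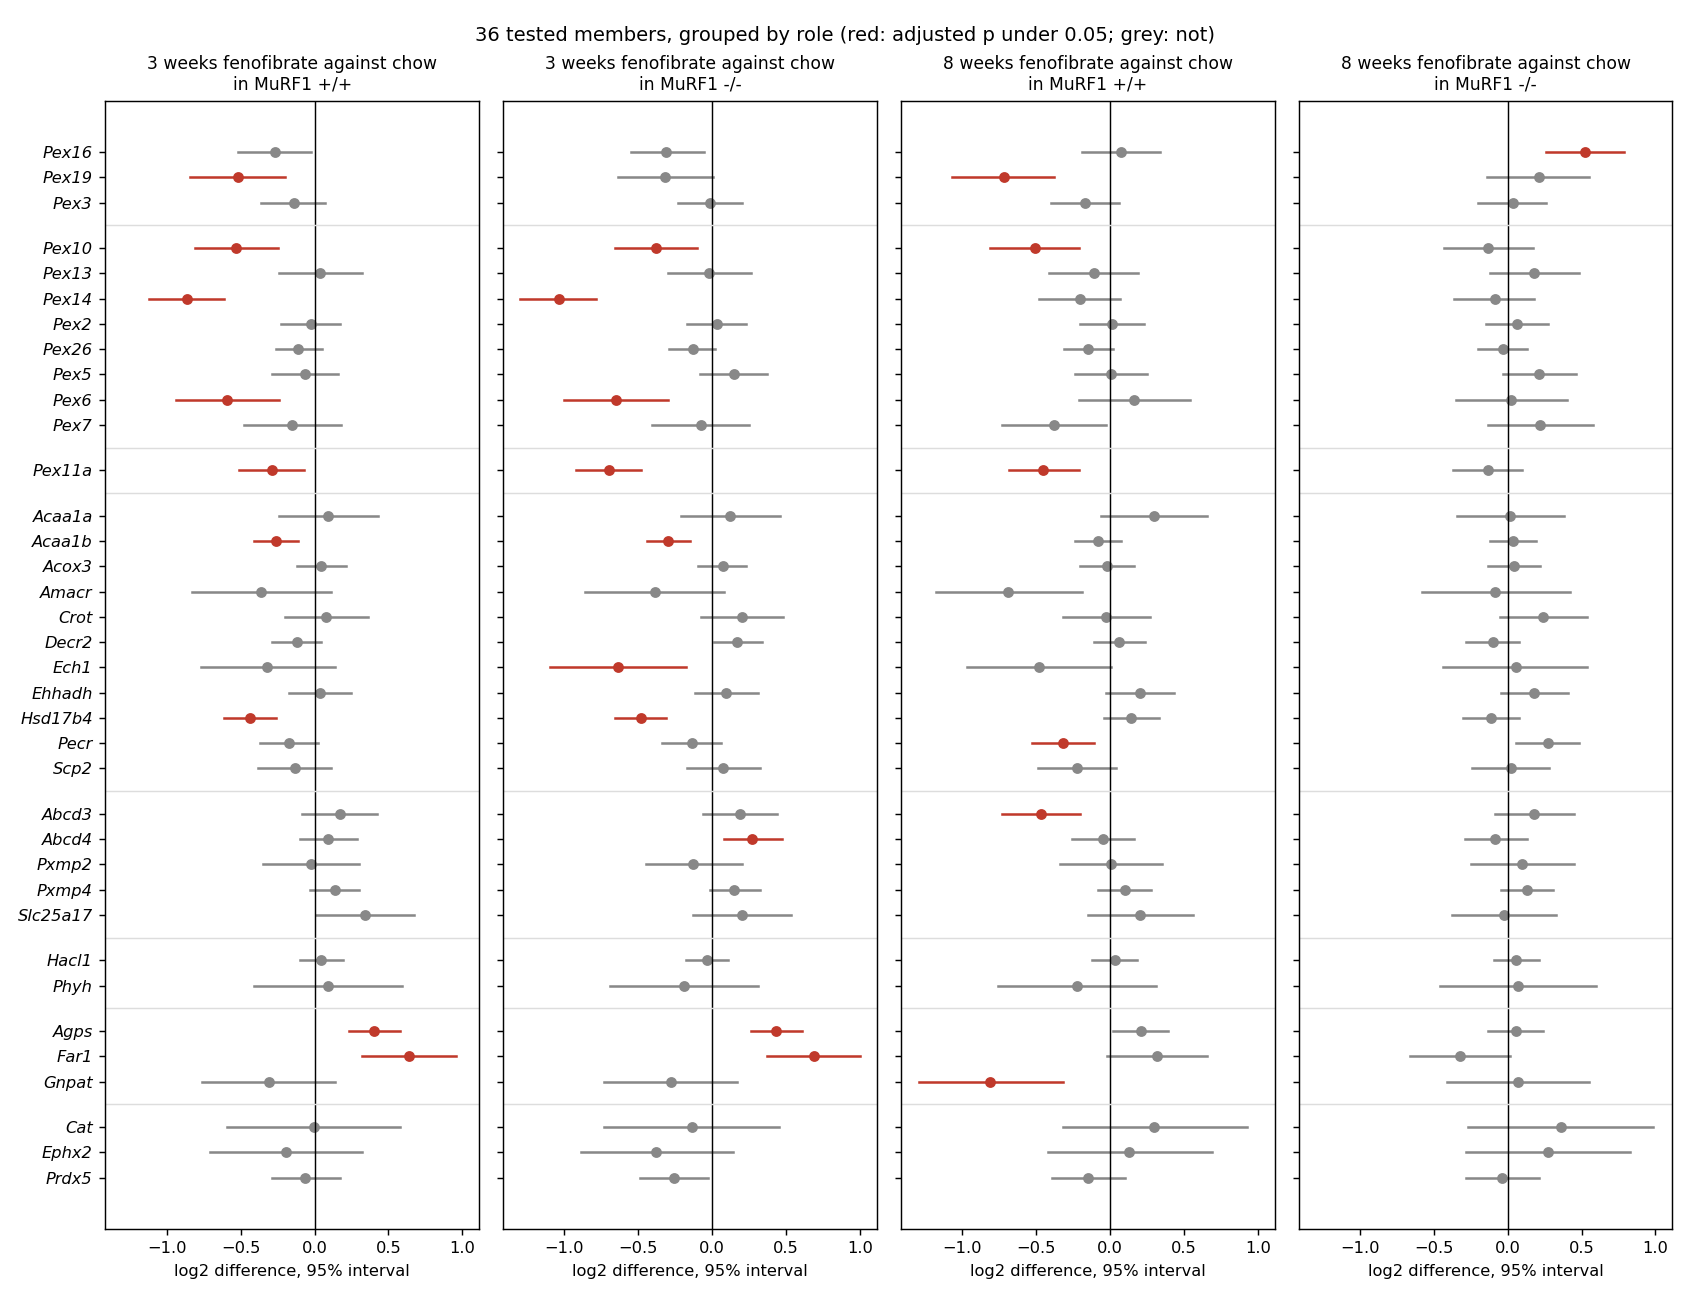
Difference from chow (log2, points, with 95% intervals) of the 36 tested members after 3 and 8 weeks of fenofibrate in MuRF1 +/+ and MuRF1 -/- hearts, with the members grouped by role. The import members Pex14, Pex6 and Pex10 lie below 0 at 3 weeks and the ether lipid members Agps and Far1 above it in both genotypes.

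The remaining members were not called in any of the comparisons. Among beta-oxidation members, Acox3, an oxidase of branched substrates, was 0.29 ± 0.087 (SD, n = 3) in MuRF1 +/+ chow hearts and 0.33 ± 0.041 (SD, n = 4) after 3 weeks, and ranged from 0.11 to 0.47 over the MuRF1 -/- 3-week hearts. Amacr, the racemase for branched fatty acids and bile acid intermediates, was 1.36 ± 0.093 (SD, n = 3) in MuRF1 +/+ chow hearts and 1 ± 0.12 (SD, n = 4) after 3 weeks. The others of this role without a call were Scp2, a thiolase and lipid carrier, and Crot, which makes carnitine esters of shortened chains. Of the alpha-oxidation members, Phyh, the hydroxylase of phytanic acid, ranged from 1.04 to 2.51 over all hearts. The lyase Hacl1 was above background on 4 of 20 arrays, all of them of 3-week hearts, and stood at -0.18 to 0.095. Among membrane members without a call, the channel Pxmp2 was at 1.94 to 2.6, and the cofactor carrier Slc25a17 differed by 0.34 at 3 weeks in MuRF1 +/+ (95% interval 0.012 to 0.67, adjusted p = 0.124). Pex3, the membrane anchor for Pex19, ranged from -0.41 to 0.1. The antioxidant peroxiredoxin Prdx5 and the epoxide hydrolase Ephx2 were lowest in MuRF1 +/+ 8-week heart 2 among the MuRF1 +/+ hearts (0.84 and 1.18).

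Counted by role, the calls at 3 weeks in MuRF1 +/+ and MuRF1 -/- were as follows. Of 8 import members 3 fell in each genotype, and of 11 beta-oxidation members 2 and 3 fell. Of 3 ether lipid members 2 rose in each genotype. Over all genes 12.2% and 12.1% fell and 12.3% and 14.3% rose, and roles of so few members are not set apart from that. None of the 2 alpha-oxidation members and none of the 3 peroxide and epoxide members passed at 3 weeks in either genotype by limma, and at an unadjusted p under 0.05 there were 0 of these 5 in MuRF1 +/+ and 1 in MuRF1 -/-.

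A second list held 52 other peroxisome genes outside the set, of which 40 were tested. At 3 weeks 0 rose and 4 fell in MuRF1 +/+, and 0 rose and 5 fell in MuRF1 -/-. Over all genes 12.3% rose and 12.2% fell in MuRF1 +/+, and 14.3% rose and 12.1% fell in MuRF1 -/-. Tysnd1, the protease that trims imported matrix enzymes, fell by 0.8 ± 0.13 in MuRF1 +/+ (adjusted p = 0.000332) and by 0.65 in MuRF1 -/- (adjusted p = 0.00149). Mvk, mevalonate kinase, fell by 0.28 (adjusted p = 0.0363) and by 0.39 (adjusted p = 0.00446). The thioesterase Acot8 (-0.31, adjusted p = 0.0169) was also called in MuRF1 +/+. The MuRF1 -/- calls besides Tysnd1 and Mvk were Fis1, a fission factor (-0.33, adjusted p = 0.00724), the glutathione transferase Mgst1 (-0.84, adjusted p = 0.00854) and the reductase Dhrs4 (-0.76, adjusted p = 0.0373).

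**Figure D4:**
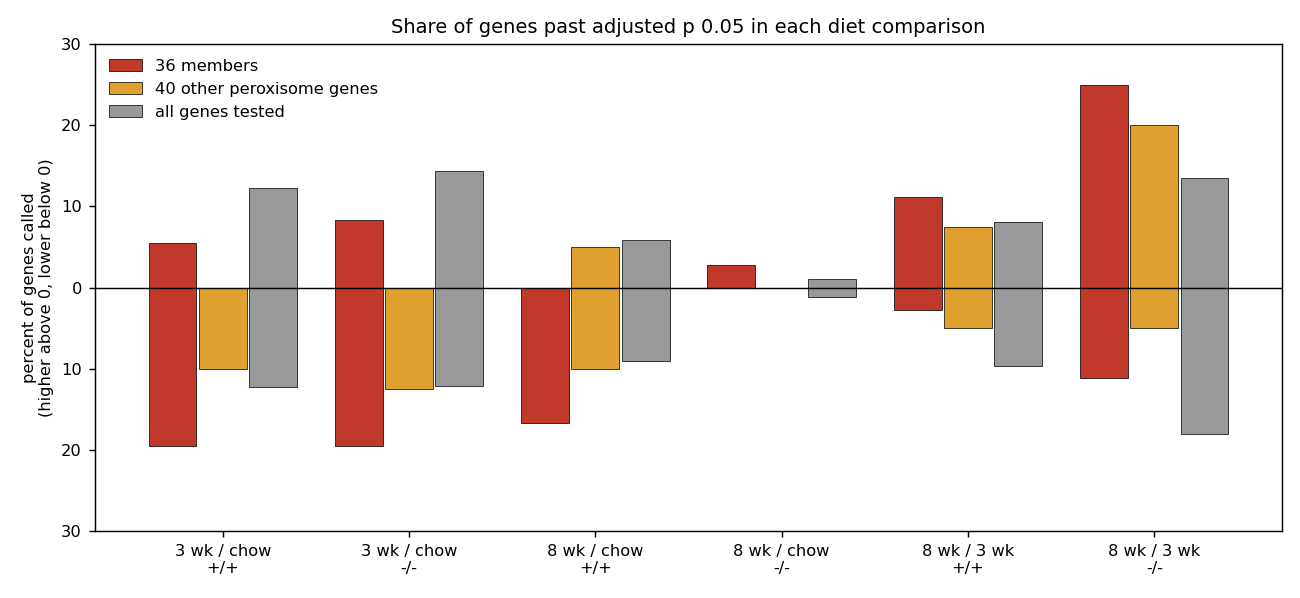
Percent of genes called higher (above 0) and lower (below 0) in 6 diet comparisons, for the 36 tested members, 40 other peroxisome genes and all 14576 tested genes. The bar of the members at 3 weeks in MuRF1 +/+ totals 25% beside 24.5% for all genes.

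The sequences around the start sites of 5 members are shown. They set Cat, the one member with a PPAR element in the windows searched, beside Pex11a, a division factor known as a PPAR alpha target. The others are Pex14, the import member with the smallest adjusted p, and the similar thiolase genes. Promoter windows of 300 bases (250 before and 50 after the start site) came from RefSeq on GRCm38.p6, and 29 of the 37 members had at least 1, with 33 windows in all. Both strands were searched for a PPAR element, a direct repeat of 2 AGGTCA motifs with any 1 base between them and up to 2 mismatches, and for a lone AGGTCA motif, which can overlap it. A PPAR element was found in 1 of the 33 windows, that of Cat, and in 3.86% of all 32851 windows. The AGGTCA motif was in 3 (Cat, Phyh and Scp2) and in 16.3% of all windows. The GC box GGGCGG was in 25 of the 33 and in 35.7% of all windows, the CCAAT box (CCAAT) in 15 and in 37.4%, the E-box CACGTG in 1 (Gnpat) and in 7.15%, and the TATA box (TATAAA) in 3 (Pex14, Pex16 and Pex26) and in 13.6%. A match describes these letters only, and a window without a match says nothing about the sequence outside it. The Cat window lies at chr2:103485104-103485403 on the minus strand, and capitals mark the PPAR element (AGGTCAGAGAACA at position -204 from the start site).
Cat: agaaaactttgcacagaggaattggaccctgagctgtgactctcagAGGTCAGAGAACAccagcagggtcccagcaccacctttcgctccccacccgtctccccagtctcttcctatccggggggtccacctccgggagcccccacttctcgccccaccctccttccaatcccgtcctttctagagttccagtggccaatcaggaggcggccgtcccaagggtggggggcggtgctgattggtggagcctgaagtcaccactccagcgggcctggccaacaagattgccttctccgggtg
The window of Pex11a, at chr7:79743082-79743381 on the minus strand, holds 0 PPAR elements, and capitals mark its GC box.
Pex11a: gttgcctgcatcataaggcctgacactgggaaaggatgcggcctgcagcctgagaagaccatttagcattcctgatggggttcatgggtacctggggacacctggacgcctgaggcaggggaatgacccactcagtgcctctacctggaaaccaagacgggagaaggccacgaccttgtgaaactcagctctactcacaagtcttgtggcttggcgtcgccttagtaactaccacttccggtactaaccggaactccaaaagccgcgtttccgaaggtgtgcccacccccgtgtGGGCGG
The window of Pex14, at chr4:149099794-149100093 on the minus strand, has capitals at its GC box and TATA box.
Pex14: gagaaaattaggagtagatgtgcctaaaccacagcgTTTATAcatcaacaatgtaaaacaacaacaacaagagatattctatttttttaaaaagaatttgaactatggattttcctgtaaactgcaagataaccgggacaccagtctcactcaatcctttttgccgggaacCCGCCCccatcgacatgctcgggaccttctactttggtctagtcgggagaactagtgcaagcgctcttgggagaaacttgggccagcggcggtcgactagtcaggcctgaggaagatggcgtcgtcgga
The windows of the thiolase genes lie at chr9:119341044-119341343 on the plus strand (Acaa1a) and chr9:119157044-119157343 on the minus strand (Acaa1b), and capitals mark their CCAAT boxes, 4 in each. Aligned to each other they had 177 identical bases in 342 aligned columns (51.8%).
Acaa1a: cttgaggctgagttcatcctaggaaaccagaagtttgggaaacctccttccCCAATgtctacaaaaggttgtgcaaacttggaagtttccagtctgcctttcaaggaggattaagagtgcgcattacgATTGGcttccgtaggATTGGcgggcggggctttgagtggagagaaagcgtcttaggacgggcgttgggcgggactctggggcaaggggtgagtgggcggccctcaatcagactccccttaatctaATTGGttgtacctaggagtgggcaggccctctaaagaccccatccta
Acaa1b: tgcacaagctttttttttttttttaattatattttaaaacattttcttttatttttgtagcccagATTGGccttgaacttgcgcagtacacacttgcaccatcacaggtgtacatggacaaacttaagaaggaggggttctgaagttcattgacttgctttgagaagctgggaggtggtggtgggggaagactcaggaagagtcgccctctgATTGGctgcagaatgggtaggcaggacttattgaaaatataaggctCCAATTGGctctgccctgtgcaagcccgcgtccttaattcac

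The longer diet was compared with the same chow hearts, so the 3-week and 8-week responses of a genotype share their controls. In MuRF1 +/+ hearts 0 members rose and 6 fell at 8 weeks (16.7%, beside 14.8% of all genes, 5.85% higher and 8.98% lower), with a median difference of -0.038 beside 0.029. In MuRF1 -/- hearts 1 member rose and 0 fell (2.78%, beside 2.23%, 1.08% higher and 1.15% lower), with a median of 0.056 beside -0.0077. The 6 that fell in MuRF1 +/+ were Pex19, Pex11a, Pex10, Abcd3, Gnpat and Pecr, and the member that rose in MuRF1 -/- was Pex16.

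Pex19 fell by 0.72 ± 0.16 at 8 weeks in MuRF1 +/+ (1.65-fold lower, adjusted p = 0.00772), its other probe gave -0.7, and the call was kept with any heart left out. Pex11a fell by 0.45 ± 0.11 (adjusted p = 0.0136, but 0.06 without chow heart 3 and 0.0714 without 8-week heart 2). Pex10 fell by 0.51 ± 0.14 (adjusted p = 0.0237; lost without chow heart 1 or 3 or 8-week heart 2, 0.0533 to 0.138, and 0.0827 with slide as a block). Abcd3 encodes the most abundant transporter of the peroxisomal membrane. It was -0.012, 0.043 and 0.11 in MuRF1 +/+ chow hearts, 0.34, 0.053, 0.23 and 0.23 after 3 weeks, and -0.48, -0.72 and -0.065 after 8 weeks. Abcd3 in MuRF1 -/- hearts was -0.23, 0.053 and 0.051 on chow, 0.12, 0.09, 0.12 and 0.24 after 3 weeks, and -0.02, 0.19 and 0.25 after 8 weeks. The MuRF1 +/+ 8-week hearts were below all other MuRF1 +/+ hearts, whereas the MuRF1 -/- 8-week hearts overlapped with their other groups. Abcd3 fell by 0.47 ± 0.13 in MuRF1 +/+ (adjusted p = 0.0209; 0.0917 without chow heart 3 and 0.125 without 8-week heart 2). Its dimmer probes, above background on 5 and 8 arrays, gave -0.03 and -0.081, and the mean of all 3 gave -0.19 (adjusted p = 0.1). Gnpat fell by 0.81 ± 0.23 (adjusted p = 0.0254; lost without any 1 chow heart or 8-week heart 2, 0.0574 to 0.112, and 0.0527 with slide as a block). Pecr, an enoyl-CoA reductase, was -0.1, -0.18 and -0.015 in MuRF1 +/+ chow hearts, -0.2, -0.3, -0.28 and -0.31 after 3 weeks, and -0.21, -0.61 and -0.43 after 8 weeks. Pecr in MuRF1 -/- hearts was -0.29, -0.15 and -0.18 on chow, -0.29, -0.23, -0.28 and -0.59 after 3 weeks, and 0.037, -0.025 and 0.17 after 8 weeks. The 8-week hearts of the genotypes did not overlap. Pecr fell by 0.32 ± 0.1 at 8 weeks in MuRF1 +/+ (adjusted p = 0.0407; lost without chow heart 1 or 3 or 8-week heart 2 or 3, 0.0786 to 0.221, and 0.118 with slide as a block). When the fit held only the compared groups, none of the 6 passed (adjusted p 0.12 to 0.23), and with the heart channel alone Pex11a, Pex10, Abcd3 and Pecr did not pass (0.0557 to 0.219).

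Pex16 takes part in the insertion of peroxisomal membrane proteins. It was 0.27, 0.24 and 0.41 in MuRF1 +/+ chow hearts, 0.095, 0.077, 0 and -0.03 after 3 weeks, and 0.7, -0.034 and 0.48 after 8 weeks. Pex16 in MuRF1 -/- hearts was 0.033, 0.26 and 0.25 on chow, -0.016, -0.21, -0.14 and -0.14 after 3 weeks, and 0.72, 0.7 and 0.69 after 8 weeks. The 3 MuRF1 -/- 8-week hearts lay close together and above every other MuRF1 -/- heart. Pex16 rose by 0.52 ± 0.13 at 8 weeks in MuRF1 -/- (1.44-fold, adjusted p = 0.0342), and its other probe gave 0.48 (adjusted p = 0.0268). The call was lost in each of the 6 fits without 1 heart (0.0653 to 0.164) and with slide as a block (0.227). Without the arrays that stand apart the adjusted p was 0.000667. Neither of those arrays is in the groups compared here, so leaving them out changed the shared estimate of the spread and not the difference.

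**Figure D5:**
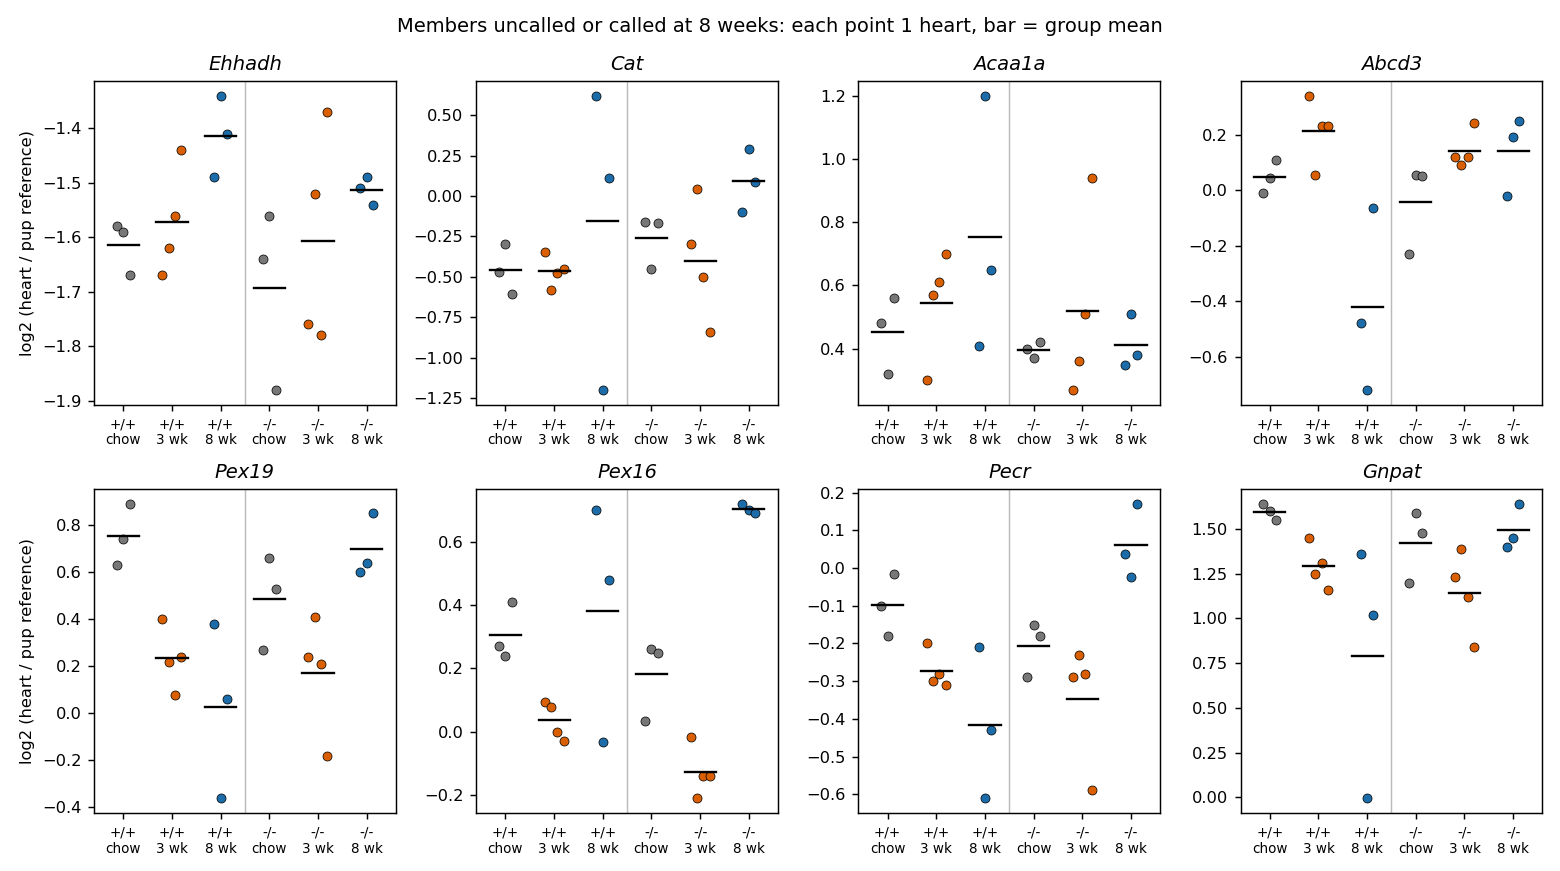
Log2 ratio (heart over newborn reference, vertical axes) by heart for Ehhadh, Cat, Acaa1a, Abcd3, Pex19, Pex16, Pecr and Gnpat. Each point is 1 heart, the 6 groups stand along the horizontal axes and bars are group means. MuRF1 +/+ 8-week heart 2 is the lowest heart for Cat (-1.2) and Gnpat (-0.0036).

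Catalase, encoded by Cat, breaks down the hydrogen peroxide that peroxisomal oxidases make. It was -0.47, -0.3 and -0.61 in MuRF1 +/+ chow hearts, -0.35, -0.58, -0.48 and -0.45 after 3 weeks, and 0.62, -1.2 and 0.11 after 8 weeks. Cat in MuRF1 -/- hearts was -0.16, -0.45 and -0.17 on chow, -0.3, 0.04, -0.5 and -0.84 after 3 weeks, and -0.097, 0.29 and 0.089 after 8 weeks. Of the 3 MuRF1 +/+ 8-week hearts, 2 were the highest and 1 the lowest of the genotype, and the MuRF1 -/- 8-week hearts were all above the MuRF1 -/- chow hearts. With all hearts the 8-week difference was 0.3 (95% interval -0.32 to 0.93, adjusted p = 0.484) in MuRF1 +/+ and 0.36 (-0.27 to 0.98) in MuRF1 -/-. Without MuRF1 +/+ 8-week heart 2 it was 0.83 ± 0.19 in MuRF1 +/+ (adjusted p = 0.0142), so 1 heart decided that value. At 3 weeks it was -0.005 (-0.59 to 0.58) in MuRF1 +/+ and -0.14 (-0.73 to 0.45) in MuRF1 -/-.

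The count of members called in MuRF1 +/+ at 8 weeks depended on single hearts. It was 12 (3 higher, 9 lower) without MuRF1 +/+ 8-week heart 1, where 32.5% of all genes were called. It was 2 (Cat higher, Pex19 lower) without heart 2, beside 6.89% of all genes. Without both arrays that stand apart it was 5, with Cat, Ephx2 (0.58, adjusted p = 0.0293) and Pex16 (0.29, adjusted p = 0.0485) higher, and Gnpat (-0.41, adjusted p = 0.0485) and Pex19 (-0.53, adjusted p = 0.0114) lower, beside 10.8% of all genes. The MuRF1 -/- count was then 3, with Pex16 and Pecr higher (0.52 and 0.27) and Far1 lower (-0.32), beside 6.98% of all genes. At 3 weeks the same omission gave 13 members (3 higher, 10 lower) in MuRF1 +/+ and 11 (3 higher, 8 lower) in MuRF1 -/-, beside 36.2% and 36.4% of all genes. Neither array is in the comparison of MuRF1 -/- 8-week or MuRF1 +/+ 3-week hearts with chow. In those comparisons the omission changed the shared estimate of the spread and not the differences.

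Genes outside the peroxisome that are known PPAR alpha targets were counted for comparison, and 20 of 22 were tested. At 3 weeks 0 rose and 0 fell in MuRF1 +/+ by limma (1 at an unadjusted p under 0.05), and 0 rose and 1 fell in MuRF1 -/- (Hadha, a subunit of the mitochondrial trifunctional protein, -0.64, adjusted p = 0.0246). At 8 weeks 5 rose in MuRF1 +/+ and 2 in MuRF1 -/-, and 0 fell. Over all genes 12.3% and 14.3% rose at 3 weeks in MuRF1 +/+ and MuRF1 -/-, and 5.85% and 1.08% at 8 weeks. Pdk4, the kinase that shuts off pyruvate oxidation, rose by 2.83 ± 0.36 in MuRF1 +/+ (adjusted p = 9.7e-05) and by 2.4 in MuRF1 -/- (adjusted p = 0.00111). The thioesterase Acot1 rose by 2.62 (adjusted p = 0.000429) and by 1.75 (adjusted p = 0.022). Cpt1a, Angptl4 and Cd36, which serve fatty acid entry and handling, rose by 0.38, 1.64 and 0.9 in MuRF1 +/+. Beside these, the 8-week difference of Ehhadh was 0.2 and 0.18, and that of the beta-oxidation members as a role was 0 called higher of 11 in both genotypes.
Of the other peroxisome genes, 2 rose and 4 fell at 8 weeks in MuRF1 +/+, and 0 rose and 0 fell in MuRF1 -/- by limma (2 at an unadjusted p under 0.05). Over all genes 5.85% rose and 8.98% fell in MuRF1 +/+, and 1.08% rose and 1.15% fell in MuRF1 -/-. The other peroxisome genes that rose were the xanthine dehydrogenase Xdh (1.12) and the superoxide dismutase Sod1 (0.64). Those that fell were Ddo, Mff, Nudt19 and Nudt7 (-0.57 to -0.73 each).

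The 8-week and 3-week diets were compared directly, a comparison in which no chow heart enters. In MuRF1 +/+ hearts 4 members were higher at 8 weeks and 1 was lower (13.9%, beside 17.8% of all genes, 8.12% higher and 9.65% lower). In MuRF1 -/- hearts 9 were higher and 4 lower (36.1%, beside 31.5%, 13.5% higher and 18% lower). Hsd17b4, Pex14, Pex6 and Pex16 were higher at 8 weeks in both genotypes, which is 80% of the calls in MuRF1 +/+ and 30.8% of those in MuRF1 -/-. Over all genes the calls shared by the genotypes were 61.7% and 34.8%. Pex14 was higher by 0.66 (1.58-fold, adjusted p = 0.00114) and by 0.95 (1.94-fold, adjusted p = 2.03e-05), Hsd17b4 by 0.58 (adjusted p = 0.000145) and 0.37 (adjusted p = 0.00239), Pex6 by 0.75 (adjusted p = 0.0043) and 0.67 (adjusted p = 0.0053). Pex16 was higher by 0.83 in MuRF1 -/- (adjusted p = 5.47e-05) and by 0.35 in MuRF1 +/+ (adjusted p = 0.0477; lost in each fit without 1 heart except that without 8-week heart 2, 0.072 to 0.225, and 0.094 with slide as a block). In the MuRF1 +/+ hearts of this comparison Ddx3y and Eif2s3y were not above background in either group, whereas Xist was -0.5 to 0.00089 after 3 weeks and -2.7, -0.9 and -2.04 after 8 weeks, and the part of sex-linked expression in these differences was not tested. With the heart channel alone Hsd17b4 passed in neither genotype (adjusted p = 0.129 and 0.328), and with only the compared groups Pex6 did not pass in MuRF1 +/+ (0.0678). Abcd3 was lower at 8 weeks in MuRF1 +/+ (-0.63, adjusted p = 0.00127), and its dimmer probes gave -0.039 and -0.13.

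In MuRF1 -/- the further members higher at 8 than at 3 weeks were Pex11a (0.56, adjusted p = 0.000603), Acaa1b (0.33, adjusted p = 0.00169), Pecr (0.4, adjusted p = 0.00334), Pex19 (0.53, adjusted p = 0.014) and Ech1 (0.69, adjusted p = 0.0215). The members lower at 8 weeks were Far1 (-1.01, 2.01-fold, adjusted p = 9.37e-05), Agps (-0.37, adjusted p = 0.00229), Abcd4 (-0.36, adjusted p = 0.00717) and Decr2 (-0.28, adjusted p = 0.0124). Without 8-week heart 3 the adjusted p was 0.0526 for Decr2, 0.0755 for Pex19 and 0.0801 for Ech1, which was also lost without 3-week heart 1 (0.0624) or 8-week heart 2 (0.0638). Slide as a block gave 0.069 for Pex19 and 0.0835 for Ech1, and the mean of its probes gave -0.11 for Agps (adjusted p = 0.151). This comparison shares its 3-week hearts with that of 3 weeks against chow. Decr2, a dienoyl-CoA reductase, was 0.36, 0.32, 0.42 and 0.54 in MuRF1 -/- hearts after 3 weeks, 0.18, 0.12 and 0.1 after 8 weeks and 0.18, 0.36 and 0.17 on chow. Decr2 in MuRF1 +/+ hearts was 0.33, 0.33 and 0.15 on chow, 0.16, 0.066, 0.12 and 0.26 after 3 weeks, and 0.21, 0.46 and 0.33 after 8 weeks. Its MuRF1 -/- 3-week hearts were above all 8-week hearts, and in MuRF1 +/+ the groups overlapped. In this MuRF1 -/- comparison Ddx3y and Eif2s3y were both above background in 0 of 4 and 2 of 3 hearts, and Xist was -0.2 to 0.2 and -4.05 to -2.72. Calls lower at 8 weeks were made for 4 of 7 fibroblast and matrix genes and 4 of 8 endothelial genes, beside 18% of all genes. The part of these sex-linked and cell type markers in the member differences was not tested. Without the 2 arrays that stand apart, 9 members were called in MuRF1 +/+ (6 higher, 3 lower), now with Cat (0.83) and Ephx2 (0.77) higher and Far1 (-0.57) and Agps (-0.32) lower, and 14 in MuRF1 -/-, beside 24.3% and 41.1% of all genes.

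The genotypes were compared at each diet. On chow 0 members and 0.0892% of all genes passed by limma (0.0343% higher and 0.0549% lower), and at 3 weeks 0 members and 0.384% of all genes (0.35% higher and 0.0343% lower). At an unadjusted p under 0.05 there were 0 members on chow and 2 at 3 weeks, counts given without the share over all genes. At 8 weeks 1 member, Pecr, was higher in MuRF1 -/- than in MuRF1 +/+ hearts (2.78% of members, beside 0.357% of all genes, 0.185% higher and 0.172% lower). Its difference was 0.48 ± 0.1 (1.39-fold, adjusted p = 0.0491), and the call was lost without MuRF1 +/+ heart 2 or any 1 MuRF1 -/- heart (0.0745 to 0.272), with slide as a block (0.161) and under most other settings. Without MuRF1 +/+ 8-week heart 1, 15 members were called (11 higher, 4 lower), beside 21.9% of all genes. The Y-linked Ddx3y was -0.76, -0.62 and -0.41 in MuRF1 +/+ 8-week hearts and 1.47, -0.68 and 1.3 in MuRF1 -/- 8-week hearts. The part of sex-linked expression in the genotype differences at 8 weeks was not tested.

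The difference between the genotypes in their response to the diet was tested as an interaction. By limma 0 members and 0% of all genes passed at either time, and 2 of 36 members at 3 weeks and 7 at 8 weeks had an unadjusted p under 0.05. Counts at an unadjusted p, here and above, are given without the share over all genes, so they are not read as a result about the members. The smallest adjusted p at 8 weeks among members was 0.192, for Pex19 (0.93) and Pecr (0.59). Without MuRF1 +/+ 8-week heart 1, 8 members passed at 8 weeks (6 higher, 2 lower), beside 11% of all genes. Sex-linked transcripts differed between the 8-week groups of the genotypes, and their part in the 8-week interaction was not tested. The 3-week differences of the genotypes had the same sign for 29 of 36 members (80.6%), beside 81.4% of all genes.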

How the data were processed

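RNA of 20 hearts (Cy5) and of a common newborn reference (Cy3) was hybridised to Agilent arrays of design 014868, per the labels and the file headers; the labelling protocol in the labels names only Cy3, so the dyes were taken from the label fields. The deposited scanner files hold mean and background spot intensities and a log10 ratio of red over green, made with Feature Extraction 9.5.3.1 per the file headers. The authors also deposited log2 values of the same arrays, whose slope on that ratio (as log2) was 0.948 to 0.994 and whose column medians were -0.006 to 0.0091; their exact centring is unknown.

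From the intensities, background was corrected by normexp (offset 50), leaving out 7 spots with background over 50 above the signal, and arrays were normalised by loess with limma 3.58.1 in R 4.3.3; control spots had weight 0 and outlier spots were left out. The 43379 spots gave 41174 probes, named by accession or symbol through the RefSeq table of GRCm38.p6, else by the files' names. A gene took its brightest heart probe and was tested when well above background on at least 3 arrays. Between 33.99% and 51.98% of heart probes were so on each array, and 0 heart spots were saturated; the number of arrays limits the precision. A model with 6 group means was fitted over 20 hearts (trended eBayes), with Benjamini-Hochberg adjustment over all genes in each comparison, at 0.05. The steps were tested on simulated data. Hearts are treated as separate samples, as labelled; nothing in the labels says that each came from its own animal, and p-values measure the spread between these samples. Same-numbered hearts of different groups correlated at -0.58 to 0.449 over 46 pairs, so the numbers were not taken to pair hearts. The 5 slides were read from scan times in the headers. For some arrays the barcode in the header names another slide than the scan time, so the slide of those arrays is uncertain. The members and lists were chosen with earlier results of these data known. All 37 members are named, and those past the threshold in any comparison, with Ehhadh, Acaa1a, Cat and Abcd2, were to be given heart by heart; of the other lists, up to 8 genes per comparison with the smallest adjusted p were eligible, and some of these are not reported here. The alternatives tried were other background fits, Agilent's deposited log10 ratio, the series matrix, the heart channel alone, other filters and probe rules, slide and replicate blocks, fits of the compared groups only, and leaving out hearts.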

Additional observations from a re-analysis of the deposited data

Results flagged for a closer look

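Over 40 groups of 4 hearts tested for a single heart far from the others, 2 were singled out, and chance does so in about 1 of 20 groups. For Ech1, MuRF1 +/+ 3-week heart 4 was at 2.14 while the others were at 2.24 to 2.26. For Pecr, MuRF1 -/- 3-week heart 4, one of the arrays that stand apart, was at -0.59 while the others were at -0.29 to -0.23. Each gap was 0.833 of its group's range.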

How the results depend on the processing

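Of the 45 member differences that passed the test, 0 changed sign under any alternative; 36 still passed when the background fit took all spots, 36 with Agilent's deposited log ratio, 29 with the series matrix, 30 with the heart channel alone, 38 with no filter on dim probes, 45 with a stricter filter, 41 with the mean of all probes, 34 with slide as a block, 42 with slide as a random block (correlation -0.0451), 39 with the replicate block, 32 with only the compared groups in the fit and 40 without the 2 arrays that stand apart. Leaving out 1 heart kept 245 of 307. The cause of these losses was not tested.

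Counts of members called moved by over 1.5 times under some settings. They are given without the share of all genes under the same setting, so they are not read as a result about the members. Counts over all genes moved too, as given below. At 3 weeks in MuRF1 +/+ the count of 9 became 5 (heart channel), 14 (compared groups only) and 5 (series matrix), and in MuRF1 -/- 10 became 3 (series matrix). At 8 weeks in MuRF1 +/+ 6 became 3 (heart channel), 0 (compared groups only), 3 (slide as a block) and 3 (series matrix). At 8 weeks in MuRF1 -/- 1 became 0 (Agilent's ratio, no filter, slide as a block), 2 (compared groups only) and 3 (without the 2 arrays). For 8 against 3 weeks in MuRF1 +/+ 5 became 3 (compared groups only) and 9 (without the 2 arrays). The genotype count at 8 weeks of 1 became 0 with all spots, the mean of probes, no filter, compared groups only, the replicate block, either slide block, the series matrix and without the 2 arrays.

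Leaving out 1 heart gave 5 to 8 and 6 to 10 members at 3 weeks (MuRF1 +/+, MuRF1 -/-), 1 to 12 and 0 to 0 at 8 weeks, 4 to 9 and 10 to 14 for 8 against 3 weeks, 0 to 0, 0 to 0 and 0 to 15 between genotypes on chow, at 3 and at 8 weeks, and 0 to 0 and 0 to 8 for the differences between responses. With the replicate block the counts were 7 and 8 at 3 weeks, 6 and 1 at 8 weeks, 4 and 13 for 8 against 3 weeks, and 0 in each genotype comparison. These counts too stand without the share of all genes under the same setting, and are not read as a result about the members.

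With the mean of all probes Acaa1a turned to -0.38 (adjusted p = 0.00314) and -0.48 (adjusted p = 0.000493) at 3 weeks, since its dimmer probes lie on the other side of 0. Over all genes the counts ran from 1996 to 5860 and 2237 to 5312 at 3 weeks, 60 to 4742 and 84 to 1017 at 8 weeks, 1016 to 3776 and 3215 to 5990 for 8 against 3 weeks, 6 to 19, 5 to 197 and 1 to 3190 between genotypes, and 0 to 7 and 0 to 1604 for the differences between responses. Signal over background limits Abcd2 and Hacl1.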

Other observations

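Comparing 8 with 3 weeks of fenofibrate, 8 of the 40 other peroxisome genes were higher and 2 lower in MuRF1 -/- hearts, and 3 were higher and 2 lower in MuRF1 +/+ hearts. Over all genes 13.5% were higher and 18% lower in MuRF1 -/- hearts, and 8.12% higher and 9.65% lower in MuRF1 +/+ hearts. Tysnd1, the protease of imported matrix enzymes that had been lower at 3 weeks than on chow, was higher at 8 weeks by 0.6 in MuRF1 +/+ and by 0.67 in MuRF1 -/-. In MuRF1 -/- hearts Mlycd, malonyl-CoA decarboxylase, was higher by 1.03, and the fission GTPase Dnm1l differed by -0.59. The PPAR alpha targets outside the peroxisome were higher at 8 than at 3 weeks for 5 of 20 genes in MuRF1 +/+ and 7 of 20 in MuRF1 -/-, and 0 were lower.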
